A study of Homo sapiens with 9 samples.

Results

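GATA3 knockdown was compared directly with HIF-1α knockdown in OEC-M1 cells, a head and neck squamous cell carcinoma (HNSCC) line, by Agilent 1-dye expression arrays. All 3 arrays of GATA3 siRNA and all 3 arrays of HIF-1α siRNA entered the comparison, which are 6 of the 9 arrays of the series. The other 3 arrays, with non-targeting siRNA (si-Control), were kept out of the test and are given as the background level. Every culture, si-Control included, spent 18 h at 1% O2, with transfection lasting 72 h per the labels, so no array shows the cells at normal oxygen. The study's supplement names a single siRNA for each target on the arrays, and the effect of that siRNA and of its target are measured together. Arrays with the same replicate number lay on the same slide, which gives 3 slides with 1 array of each group. The labels do not say whether replicates were separate cultures, so P values measure the spread between arrays, which may be technical. Levels are log2 intensity after quantile normalization. A difference is always the level in GATA3 knockdown less that in HIF-1α knockdown, on the log2 scale, and a value above 0 means only that RNA was higher in GATA3 knockdown, which a rise after GATA3 siRNA, a fall after HIF-1α siRNA or both would give.

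GATA3 is a zinc finger transcription factor of lymphocytes and of luminal breast and other epithelia that binds GATA motifs. HIF-1 is a dimer of the oxygen-labile subunit HIF-1α, encoded by HIF1A, and the stable subunit ARNT. With enough oxygen, prolyl hydroxylases such as EGLN1 mark HIF-1α for degradation. At low oxygen the dimer binds hypoxia response elements with the core ACGTG or GCGTG and raises genes of glycolysis, pH control, matrix modification and mitophagy, the removal of mitochondria. The study asked which functions GATA3 and HIF-1α govern in hypoxic cancer cells, and the direct comparison asks where RNA levels part between both knockdowns.

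The promoters of the genes that the results turn on are shown first, as the 250 bases before the RefSeq start on GRCh38.p14, 5′ to 3′ on the strand of the gene. For 4 HIF-1 targets that were higher in GATA3 knockdown, capitals mark the HIF core ACGTG on either strand.
BHLHE41 (chr12:26125038-26125287, minus strand): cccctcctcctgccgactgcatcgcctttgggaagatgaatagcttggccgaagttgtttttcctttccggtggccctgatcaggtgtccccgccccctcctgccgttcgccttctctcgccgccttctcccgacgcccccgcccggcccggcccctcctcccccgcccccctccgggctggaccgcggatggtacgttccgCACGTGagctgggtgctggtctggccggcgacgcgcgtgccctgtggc
BNIP3 (chr10:131981924-131982173, minus strand): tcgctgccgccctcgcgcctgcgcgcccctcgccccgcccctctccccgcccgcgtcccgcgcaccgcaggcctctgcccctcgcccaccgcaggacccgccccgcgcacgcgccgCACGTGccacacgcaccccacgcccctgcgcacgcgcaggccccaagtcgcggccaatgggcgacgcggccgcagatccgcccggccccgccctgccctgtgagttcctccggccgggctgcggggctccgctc
ENO2 (chr12:6914330-6914579, plus strand): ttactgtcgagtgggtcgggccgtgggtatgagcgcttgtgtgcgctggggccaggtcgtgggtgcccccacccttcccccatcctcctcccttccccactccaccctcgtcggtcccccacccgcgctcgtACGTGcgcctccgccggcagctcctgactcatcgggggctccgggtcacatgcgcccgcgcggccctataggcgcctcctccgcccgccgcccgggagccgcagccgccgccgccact
CA9 (chr9:35673678-35673927, plus strand): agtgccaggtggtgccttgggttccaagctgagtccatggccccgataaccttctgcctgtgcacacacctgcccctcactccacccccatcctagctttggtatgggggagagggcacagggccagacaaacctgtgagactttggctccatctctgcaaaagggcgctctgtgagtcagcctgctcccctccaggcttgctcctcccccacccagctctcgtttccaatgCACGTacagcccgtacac
For 2 inflammatory genes that were higher in GATA3 knockdown, capitals mark GGNNTTTCC on either strand, a letter pattern of NF-kB sites.
CXCL8 (chr4:73740319-73740568, plus strand): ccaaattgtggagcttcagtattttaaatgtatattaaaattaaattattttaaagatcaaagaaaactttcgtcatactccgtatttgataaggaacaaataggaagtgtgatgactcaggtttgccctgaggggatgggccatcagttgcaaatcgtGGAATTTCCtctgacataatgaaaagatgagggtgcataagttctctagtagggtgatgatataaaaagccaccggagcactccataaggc
ICAM1 (chr19:10270870-10271119, plus strand): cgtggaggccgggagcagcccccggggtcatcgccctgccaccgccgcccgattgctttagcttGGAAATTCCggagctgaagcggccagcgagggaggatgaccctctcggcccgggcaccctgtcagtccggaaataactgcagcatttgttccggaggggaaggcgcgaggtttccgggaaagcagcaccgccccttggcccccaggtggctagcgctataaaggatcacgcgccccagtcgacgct
For 2 genes that were lower in GATA3 knockdown, ACGTG was searched in the same way and neither stretch holds it.
PADI1 (chr1:17204878-17205127, plus strand): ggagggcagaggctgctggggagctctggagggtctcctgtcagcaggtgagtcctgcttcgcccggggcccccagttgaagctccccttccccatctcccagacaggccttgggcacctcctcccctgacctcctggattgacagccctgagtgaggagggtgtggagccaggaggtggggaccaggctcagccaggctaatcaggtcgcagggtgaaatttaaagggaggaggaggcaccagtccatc
E2F2 (chr1:23531234-23531483, minus strand): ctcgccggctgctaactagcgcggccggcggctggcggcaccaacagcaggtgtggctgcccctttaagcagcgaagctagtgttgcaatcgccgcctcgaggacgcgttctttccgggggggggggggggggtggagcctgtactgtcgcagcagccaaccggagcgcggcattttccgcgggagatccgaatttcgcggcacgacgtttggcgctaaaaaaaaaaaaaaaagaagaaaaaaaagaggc

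In windows from 250 bases before to 50 bases after the start, 24.9% of 27305 RefSeq genes held ACGTG on either strand. Of the HIF-1 targets listed below with a window, 15 of 23 in glucose metabolism and 16 of 24 in oxygen, pH, vessels and mitophagy held it. Among the members that were higher in GATA3 knockdown at an unadjusted P of 0.05, 11 of 14 and 13 of 17 held it, against 4 of 9 and 3 of 7 of the others. GGNNTTTCC stood in 7.61% of all genes and in 17 of 24 genes of the chemokine and NF-kB list, with 9 of 14 among members that were higher and 8 of 10 among the others. Among the 12 genes with the largest difference in each direction, 11 and 8 had a window, and ACGTG stood in 4 of the higher and 0 of the lower genes. GCGTG stood in 6 of those 11 and 1 of those 8 genes against 40.6% of all genes. The AP-1 pattern TGANTCA stood in 5 and 0 against 9.37%, and GGNNTTTCC in 2 and 0. The GATA patterns AGATAA and TGATAA stood in 0 and 1 of the higher and in 2 and 1 of the lower genes, against 12.4% and 9.22% of all genes. The GATA patterns overlap in all letters but the first, as do the HIF cores, the lists were built from known targets of these factors, and a match describes letters only.

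Across the arrays, HIF-1 targets and inflammatory genes were among the genes that parted furthest, both higher in GATA3 knockdown. Of 45399 genes tested, 4394 were higher in GATA3 knockdown (9.68%) and 3973 lower (8.75%) at an unadjusted P of 0.05, the study's threshold, in limma with the slide as a block. Among the 18705 genes with a RefSeq symbol and a signal well above background in at least 1 knockdown (all 3 arrays), 2662 were higher (14.2%) and 1632 lower (8.72%). After Benjamini-Hochberg adjustment over all genes, 243 were higher (0.535%) and 56 lower (0.123%) at an adjusted P of 0.05. Of 41116 genes measured on all 6 arrays, 11.9% had all 3 GATA3 knockdown arrays higher than all 3 of HIF-1α knockdown and 10.9% had all 3 lower.

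The number of genes past the adjusted threshold depended on how the arrays were fitted. Without the slide block, 14 genes were higher and 1 lower at an adjusted P of 0.05, with 4307 and 4372 at the unadjusted threshold. Those 15 were among the 299 of the blocked fit, and all 299 passed the unadjusted threshold without the block. With the scanner's processed signal less its 75th percentile, 0 genes passed the adjusted threshold, 2752 were higher and 4136 lower at the unadjusted one, and the share of higher among called genes went from 52.5% to 40%. On the authors' log2 table, which is scaled the same way, 0 passed and the share was 39%. Without slide 1, slide 2 or slide 3, 166, 9885 and 371 genes passed, and 257, 286 and 246 of the 299 passed the unadjusted threshold. Adjusted P values below are those of the blocked limma fit.

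The arrays differed in brightness along the comparison. The median spot intensity on slides 1 to 3 was 1627, 2452 and 1410 for GATA3 knockdown and 3560, 2132 and 2502.5 for HIF-1α knockdown. HIF-1α knockdown was thus the brighter array on slides 1 and 3 and the dimmer one on slide 2. The share of probes well above background was 73.31% to 83.02% for GATA3 siRNA and 80.03% to 87.02% for HIF-1α siRNA. For the 18705 genes above, the median difference was 0.22, -0.07 and 0.28 on the 3 slides. With brightness as a covariate in place of the block, 0 genes passed the adjusted threshold of limma, 1176 were higher and 1058 lower at the unadjusted one, and 260 of the 299 were among those. Each group also had a fixed place on its slides, so place and knockdown cannot be told apart.

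**Figure D1:**
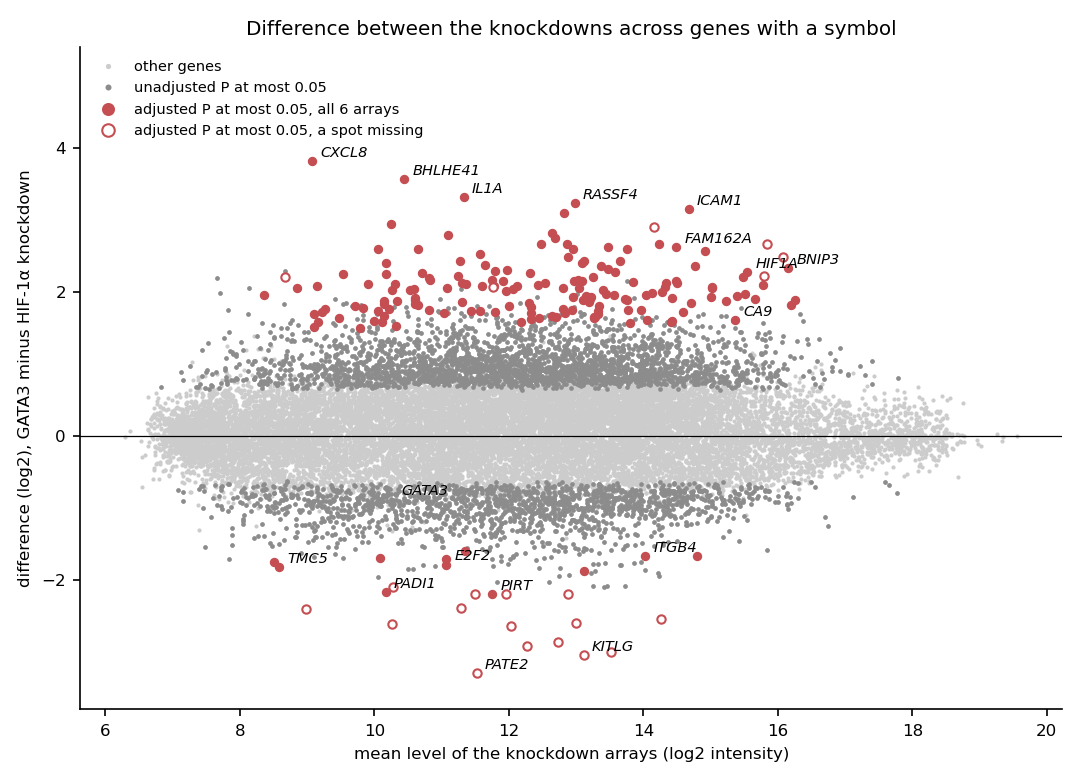
Difference (log2, GATA3 minus HIF-1α knockdown, vertical axis) against the mean level on the knockdown arrays (log2 intensity, horizontal axis) for each gene with a symbol that was tested. Filled red points are genes with an adjusted P of at most 0.05 measured on all 6 arrays, open red points are such genes with a spot missing, and 15 of the 26 lower ones are open against 6 of the 161 higher ones.

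Both targets were lower where their own siRNA was used. The level of HIF1A was 17.03, 16.03 and 16.99 after GATA3 siRNA on slides 1 to 3, 14.50, 14.13 and 14.59 after HIF-1α siRNA and 16.74, 16.23 and 17.18 after si-Control. HIF-1α knockdown was the lowest on each slide and the knockdowns did not overlap, and GATA3 knockdown lay within the range of si-Control except on slide 2. The difference was 2.28 (SE 0.30), 4.85-fold, with an adjusted P of 0.014 in limma. The level of GATA3 was 9.65, 9.48 and 10.40 after GATA3 siRNA, 10.29, 11.11 and 10.78 after HIF-1α siRNA and 10.71, 11.12 and 11.48 after si-Control. GATA3 knockdown was lower than HIF-1α knockdown on every slide, but its array on slide 3 was above the HIF-1α knockdown array on slide 1, so the groups overlapped. The difference of -0.89 (SE 0.33), 1.85-fold, passed at an unadjusted P of 0.0213 in limma and not after adjustment (0.216). Over 24 alternatives of processing, fit and arrays it ranged from -1.48 to -0.51 and missed the unadjusted threshold in 5.

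**Figure D2:**
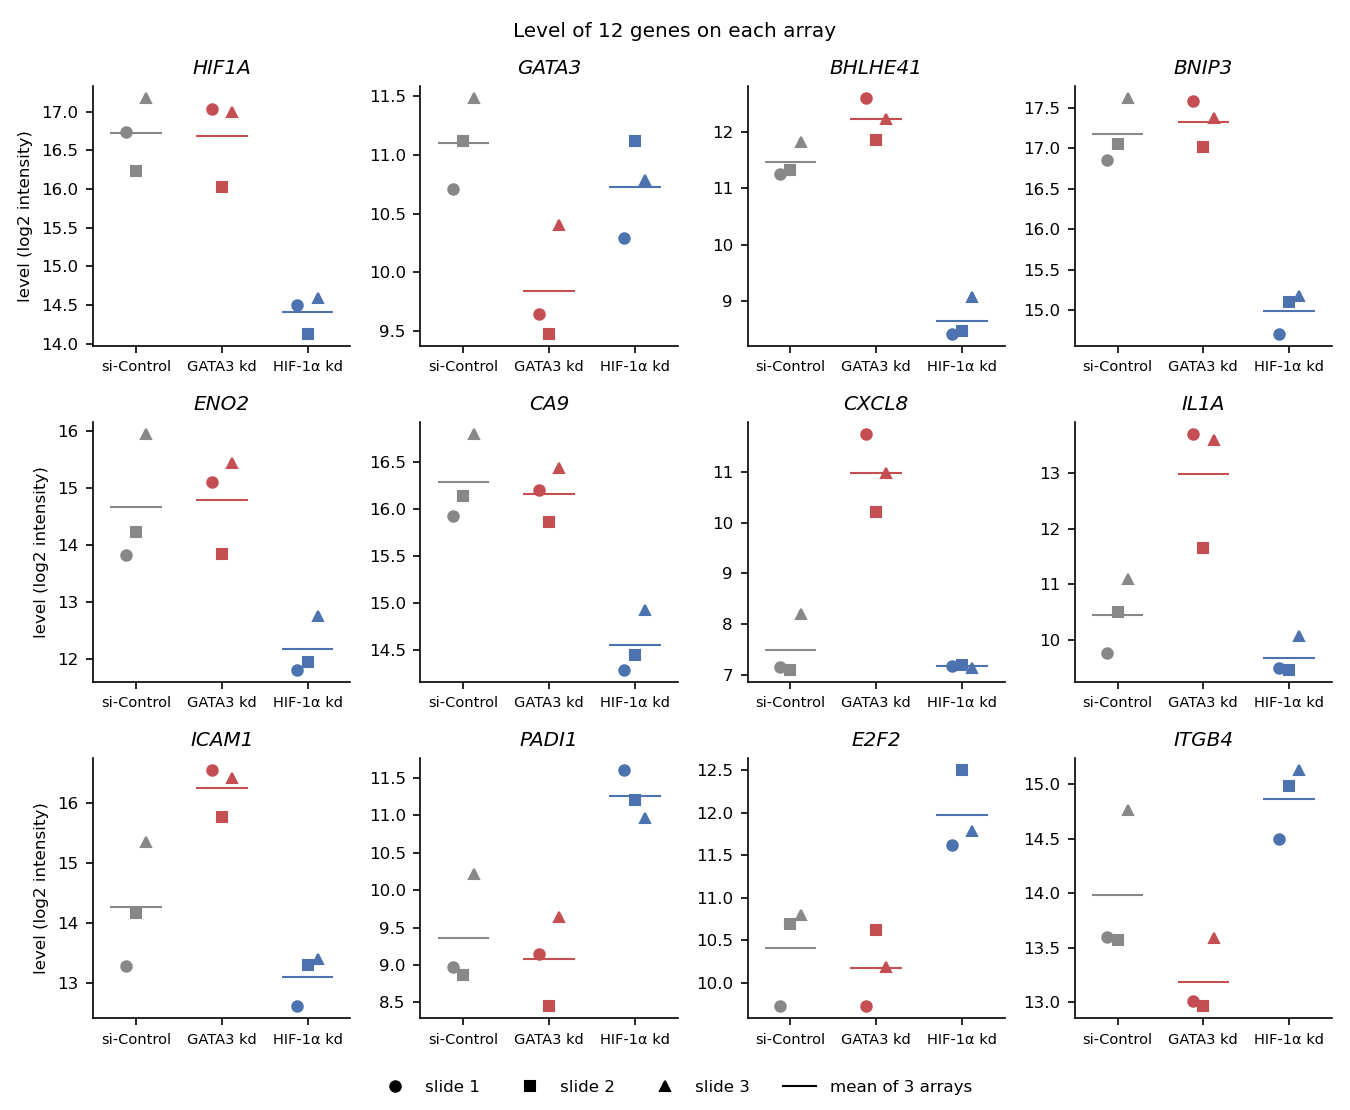
Level (log2 intensity, vertical axis) of 12 genes on each of the 9 arrays, by group, with symbols for the slide and a bar for the mean of 3 arrays. The 3 HIF-1α knockdown arrays lie below all others for HIF1A, BHLHE41, BNIP3, ENO2 and CA9 and above all others for PADI1 and E2F2, while the 3 GATA3 knockdown arrays lie above all others for CXCL8, IL1A and ICAM1.

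HIF-1 targets for oxygen, pH, vessels and mitophagy had the largest median difference of the 30 gene lists compared. Of 29 members tested, 20 were higher in GATA3 knockdown and 1 was lower, 12 of the higher ones past the adjusted threshold, against 9.68% higher and 8.75% lower over all genes. Of these 12, BHLHE41 and BNIP3 passed the adjusted threshold without the block. Their median difference was 1.34, beside 0.09 for all symbol genes above background, and it was 1.91, 0.94 and 1.49 on slides 1 to 3. Over the alternatives it stayed between 0.89 and 1.66. In 20 of the 29 the knockdowns did not overlap, with GATA3 knockdown higher, against 11.9% over all genes.

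BHLHE41, a basic helix-loop-helix repressor also known as DEC2 that acts in the circadian clock, led this list. Its level was 12.60, 11.85 and 12.22 after GATA3 siRNA, 8.42, 8.48 and 9.07 after HIF-1α siRNA and 11.26, 11.32 and 11.81 after si-Control. The HIF-1α knockdown arrays were far below the rest, and the GATA3 knockdown arrays were all above si-Control on their slides. The difference was 3.57 (SE 0.32), 11.9-fold, with an adjusted P of 0.00544 in limma and of 0.0255 without the block. BNIP3, a receptor for mitophagy on the outer mitochondrial membrane, had levels of 17.58, 17.02 and 17.38 after GATA3 siRNA, 14.71, 15.10 and 15.18 after HIF-1α siRNA and 16.86, 17.06 and 17.62 after si-Control. Here GATA3 knockdown and si-Control overlapped and HIF-1α knockdown was below both, with a difference of 2.33 (SE 0.31) and an adjusted P of 0.0161 in limma. Its relative BNIP3L differed by 1.88, with an adjusted P of 0.0295.

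Genes of oxygen sensing differed unevenly. EGLN1, the prolyl hydroxylase that marks HIF-1α, differed by 2.20 (SE 0.34), with slide values of 3.01, 1.49 and 2.11 and an adjusted P of 0.0263 in limma. KDM3A, a histone demethylase that needs oxygen, was at 14.18, 13.31 and 14.88 after GATA3 siRNA and 11.98, 12.12 and 12.68 after HIF-1α siRNA, a difference of 1.86. EGLN3, a hydroxylase of the same family, did not pass, with a difference of -0.17 (SE 0.32) and slide values of 0.48, -0.50 and -0.48. Among HIF subunits, ARNT was 0.86 higher and ARNT2 differed by -0.77. Both missed the adjusted threshold, at adjusted P values of 0.225 and 0.253 in limma. ARNT had slide values of 1.41, 0.09 and 1.07 and ARNT2 of -0.41, -0.35 and -1.55. ARNT and ARNT2 missed the unadjusted threshold in 8 and 12 of 24 alternatives, and a dimmer probe of ARNT2 gave -1.03.

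Matrix enzymes of the same program separated as well. LOX, which crosslinks collagen, differed by 2.12 (SE 0.32), and the collagen prolyl hydroxylase subunit P4HA1 by 1.88 (SE 0.35), with adjusted P values of 0.0233 and 0.0445 in limma. For P4HA2 the spot of HIF-1α knockdown on slide 3 was missing, and the fit over the other 2 slides gave 2.15 (SE 0.45). The lysyl hydroxylases PLOD1 and PLOD2 did not pass, at 0.58 and 0.61. FAM162A, a mitochondrial protein of hypoxic cell death, ANKRD37 and INSIG2, which holds the sterol sensor in the endoplasmic reticulum, differed by 2.62, 2.43 and 2.36. The adenylate kinase AK4, the nuclear receptor RORA, ANGPTL4, KLF10, KDM4B, MXI1 and RIOX2 were 0.82 to 1.49 higher and missed the adjusted threshold.

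The carbonic anhydrases of the cell surface, which set pH around the cell, went in opposite directions. CA9 was at 16.20, 15.86 and 16.43 after GATA3 siRNA, 14.29, 14.44 and 14.93 after HIF-1α siRNA and 15.92, 16.14 and 16.80 after si-Control, with no overlap between the knockdowns. Its difference was 1.61 (SE 0.29), 3.05-fold, with an adjusted P of 0.0423 in limma. CA12 stood clear of background on all 3 arrays of HIF-1α knockdown, at 8.19, 8.38 and 9.38, and on 0 arrays of GATA3 knockdown or si-Control. It was at least 2.18-fold higher in HIF-1α knockdown, with an adjusted P of 0.069 in limma. For this bound the dim group was set, array by array, to the dimmest signal that counts as well above background, or to the measured signal where that was higher.

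Not every hypoxia gene told the knockdowns apart. VEGFA, the vascular growth factor, was at 17.56, 17.05 and 17.58 after GATA3 siRNA and 17.37, 17.40 and 17.54 after HIF-1α siRNA, which overlapped. Its difference was -0.04 (SE 0.29). DDIT4, an inhibitor of mTORC1, differed by 0.03 (SE 0.29) and ADM, a vasodilator peptide, by 0.42 (SE 0.29), and neither passed. The level of DDIT4 was 18.30, 17.83 and 17.82 after GATA3 siRNA and 18.23, 17.72 and 17.92 after HIF-1α siRNA, with overlap.

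HIF-1 targets of glucose metabolism were higher in GATA3 knockdown in 15 of 24 members tested and lower in 0, against 9.68% and 8.75% over all genes. Past the adjusted threshold 6 were higher, against 0.535% over all genes. The median difference was 0.88, with 1.15, 0.80 and 1.00 on slides 1 to 3, and between 0.72 and 1.20 over the alternatives. In 17 of the 24 the knockdowns did not overlap, with GATA3 knockdown higher, against 11.9% over all genes. The 6 past the adjusted threshold were PFKFB4, ENO2, PDK1, ALDOC, PPP1R3C and GBE1, and 0 of the 6 passed it without the block.

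PFKFB4, which makes the activator of phosphofructokinase, was at 13.93, 13.91 and 14.76 after GATA3 siRNA, 10.97, 11.40 and 12.24 after HIF-1α siRNA and 12.93, 13.82 and 14.89 after si-Control. GATA3 knockdown and si-Control overlapped, and both were above every HIF-1α knockdown array. The difference was 2.66 (SE 0.29), 6.33-fold, with an adjusted P of 0.00941 in limma. PFKFB1, of the same enzyme family and outside the list, differed by 2.75 (SE 0.31). PDK1, the kinase that keeps pyruvate from the citrate cycle, was at 15.04, 13.92 and 14.94 after GATA3 siRNA and 12.07, 12.36 and 12.51 after HIF-1α siRNA, a difference of 2.32. ENO2 and ALDOC, isoforms of enolase and aldolase, differed by 2.62 and 2.15, at adjusted P values of 0.0127 and 0.0161 in limma. Genes of glycogen storage were among the higher ones, with 2.01 for PPP1R3C, 1.79 for the branching enzyme GBE1 and 1.41 for the synthase GYS1.

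The hexokinases HK2 and HK1 were 1.57 and 1.37 higher, and GPI, PFKFB3, PGM1 and PFKP, which act next to them, between 0.65 and 1.32 higher, all at the unadjusted threshold alone. The glucose transporter SLC2A3 was at 13.37, 12.14 and 13.76 after GATA3 siRNA and 11.99, 11.82 and 12.58 after HIF-1α siRNA, and the groups overlapped. Its difference of 0.96 (SE 0.32) passed at an unadjusted P of 0.0123 in limma, while SLC2A1, at 0.60 (SE 0.30), did not. Another probe of SLC2A3 gave 0.67 and did not pass. SLC2A3 missed the unadjusted threshold in 8 of 24 alternatives, and SLC2A1 passed it in 3. PGK1 was 0.80 higher, at 18.23, 18.17 and 18.14 after GATA3 siRNA against 17.34, 17.16 and 17.65 after HIF-1α siRNA. The 9 members that did not pass were SLC2A1, the lactate exporter SLC16A3 and the enzymes LDHA, TPI1, PKM, PGAM1, ENO1, GAPDH and PFKL, between -0.10 and 0.63.

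**Figure D3:**
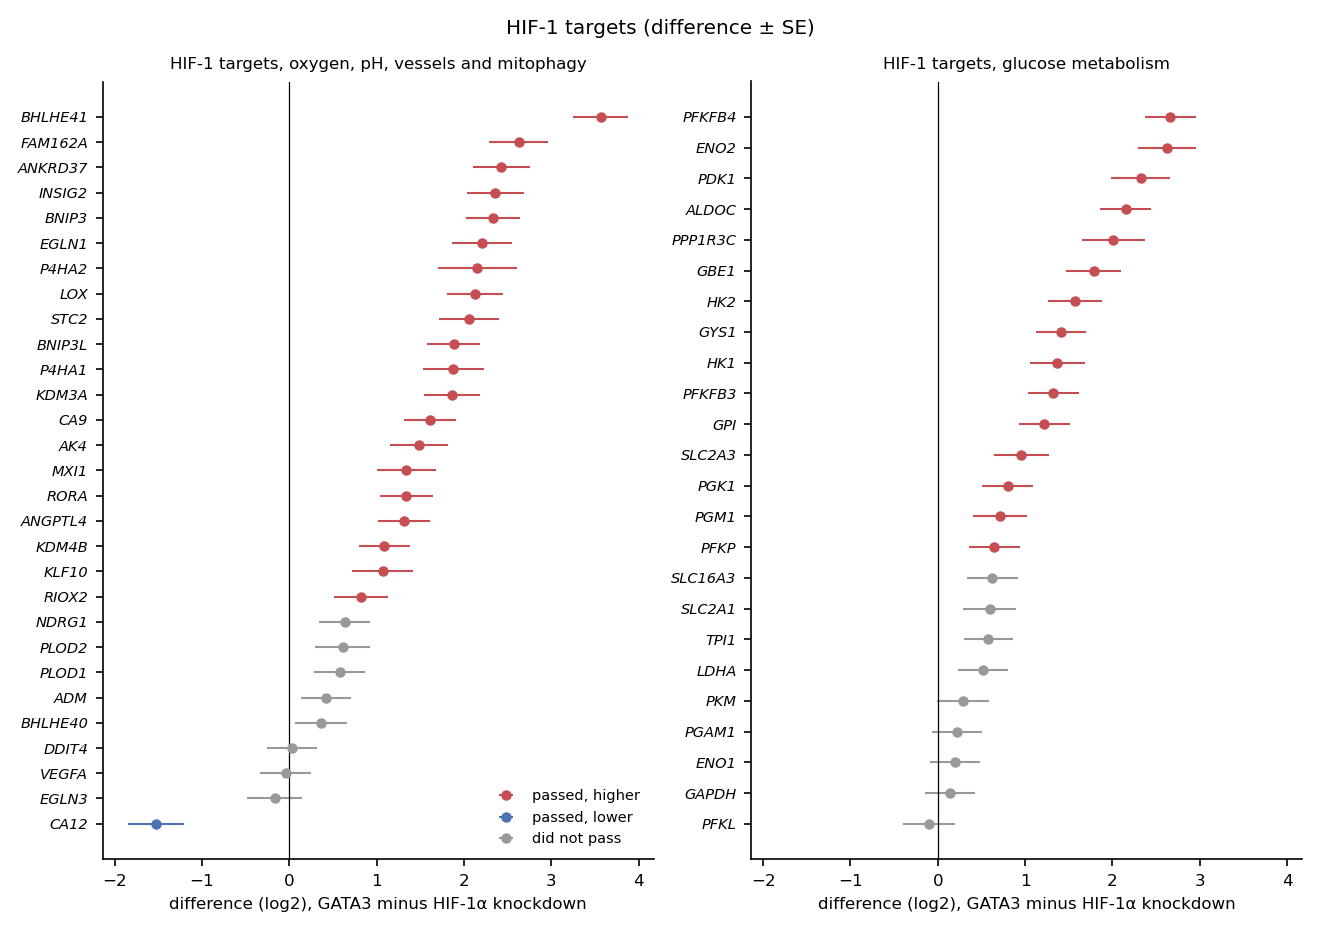
Difference (log2, GATA3 minus HIF-1α knockdown, horizontal axis) of each tested HIF-1 target, as the estimate with its SE, red where higher and blue where lower at an unadjusted P of 0.05. Of the oxygen list 20 members are red and 1, CA12, is blue, and of the glucose list 15 are red and 0 are blue.

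The Jumonji histone demethylases, enzymes that use oxygen and whose list shares KDM3A, KDM4B and RIOX2 with the HIF-1 targets, were higher in 13 of 21 members and lower in 0. The shares over all genes were 9.68% higher and 8.75% lower. The median difference of the Jumonji list was 0.93, with 1.39, 0.33 and 1.25 on slides 1 to 3. KDM4C differed by 1.44, KDM6B by 1.31 and KDM5B by 1.28, and KDM3A alone passed the adjusted threshold. MXI1 and MAX, partners in the network that opposes or serves MYC, were 1.34 and 1.18 higher, and MXD3 differed by -0.80. Dimmer probes of MXI1 gave 1.74, which passed the unadjusted threshold, and 0.49, which did not. A dimmer probe of MXD3 gave -0.13 and did not pass.

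Chemokines, interleukins and genes of NF-kB feedback were another group with many members higher in GATA3 knockdown. Of 29 members, 15 were higher and 1, RELB, was lower, against 9.68% and 8.75% over all genes. The adjusted threshold was passed by 5, all higher, against 0.535% higher over all genes. Of these 5, CXCL8 and ICAM1 passed it without the block. The median difference was 0.73, with 1.05, 0.34 and 0.72 on slides 1 to 3, and 0.47 to 0.88 over the alternatives. In 16 of the 29 all arrays of GATA3 knockdown were higher than those of HIF-1α knockdown, and in 2 all were lower. The shares over all genes were 11.9% and 10.9%.

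CXCL8, the neutrophil chemokine interleukin-8, had the largest difference of all genes with a symbol. Its level was 11.75, 10.21 and 10.98 after GATA3 siRNA, 7.18, 7.19 and 7.14 after HIF-1α siRNA and 7.14, 7.09 and 8.20 after si-Control. It was well above background on all 3 arrays of GATA3 knockdown and on 1 array each of the other groups, so HIF-1α knockdown and si-Control both lay near the floor. The difference, measured against that floor, was 3.82 (SE 0.35), with an adjusted P of 0.00544 in limma and of 0.0255 without the block. IL1A, the alarmin interleukin-1α, was at 13.71, 11.65 and 13.60 after GATA3 siRNA, 9.50, 9.46 and 10.07 after HIF-1α siRNA and between 9.76 and 11.10 after si-Control. All 3 GATA3 knockdown arrays were above the 6 others, and the difference was 3.31 (SE 0.38), 9.92-fold, with an adjusted P of 0.00947 in limma. IL1B and IL11 differed by 1.23 and 1.76, the latter with an adjusted P of 0.0322.

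ICAM1, an adhesion molecule for leukocytes, was at 16.56, 15.77 and 16.43 after GATA3 siRNA, 12.61, 13.30 and 13.39 after HIF-1α siRNA and 13.28, 14.17 and 15.36 after si-Control. The si-Control arrays spread widely and overlapped HIF-1α knockdown, and GATA3 knockdown was above both. The difference was 3.15 (SE 0.34), 8.9-fold, with an adjusted P of 0.00941 in limma. TNFAIP3, the deubiquitinase that shuts off NF-kB, was at 13.26, 11.80 and 13.43 after GATA3 siRNA, 10.26, 9.78 and 10.89 after HIF-1α siRNA and 10.49, 12.04 and 13.62 after si-Control. The si-Control arrays spread from near the level of HIF-1α knockdown to that of GATA3 knockdown, and the difference between the knockdowns was 2.52 (SE 0.31). The inhibitor NFKBIA and the subunit NFKB1 were 0.89 and 1.12 higher, while RELB differed by -0.83, with adjusted P values of 0.212, 0.164 and 0.223 in limma. CSF2, one of the 15, stood clear of background on 0 of the 9 arrays. CXCL1, a chemokine of the same family as CXCL8, and IL6 did not pass, at -0.65 and -0.13. The others that passed, PTGS2, CXCL2, NFKBIZ, BIRC3, CCL20 and CSF3, were 0.73 to 1.15 higher, and the other 11 that did not were between -0.71 and 0.60.

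Some readouts of ERK signalling and of the urokinase system were higher in GATA3 knockdown as well. Their counts are to be read against 9.68% higher and 8.75% lower over all genes. Among symbol genes above background the shares were 14.2% and 8.72%. Of 16 ERK feedback genes and PEA3 factors, 5 were higher and 0 lower, with a median of 0.49 that was 0.80, -0.08 and 0.84 on slides 1 to 3. FOSL1, an AP-1 subunit, was at 17.48, 16.28 and 17.56 after GATA3 siRNA, 15.02, 14.70 and 16.15 after HIF-1α siRNA and 16.05, 15.89 and 17.26 after si-Control, a difference of 1.82 (SE 0.32) with an adjusted P of 0.0384 in limma. DUSP6, SPRED1 and PHLDA1, which damp this pathway or follow it, differed by 1.38, 1.30 and 1.15 and missed the adjusted threshold. Of 22 matrix proteases and their inhibitors, 7 were higher and 0 lower, with a median of 0.19. PLAUR, the urokinase receptor, was 1.31 higher and MMP13, a collagenase, 0.86 higher, with adjusted P values of 0.0831 and 0.195 in limma.

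Other genes with large positive differences lay outside these groups. RASSF4, a Ras association domain protein, was at 14.61, 14.23 and 14.95 after GATA3 siRNA and 10.43, 11.56 and 12.10 after HIF-1α siRNA, a difference of 3.23 (SE 0.35). ZNRF1, a ubiquitin ligase, differed by 3.10, ZP1 by 2.81, TM4SF19 by 2.79 and KCTD11, an adaptor of a ubiquitin ligase that opposes Hedgehog signalling, by 2.67. BIK, a BH3-only protein that triggers apoptosis, was at 11.61, 11.28 and 12.29 after GATA3 siRNA and 8.38, 8.73 and 9.24 after HIF-1α siRNA and was well above background on 2 of the 3 latter arrays. Its difference was 2.94 (SE 0.30), 7.67-fold, while the related BCL2L11 differed by -0.88, and these were the only members of 16 in the BCL2 family that passed. Dimmer probes of BCL2L11 gave -0.59 and -0.14 and did not pass. RBPJ, the DNA-binding factor of Notch signalling, was 2.02 higher (SE 0.33), with an adjusted P of 0.0295 in limma, and ETS1, an ETS factor of vessels and lymphocytes, 2.57 higher. Every gene named in this paragraph but BCL2L11 passed the unadjusted threshold in all 24 alternatives.

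Genes lower in GATA3 knockdown were fewer at the adjusted threshold and less completely measured. Of the 26 genes with a symbol that were lower at the adjusted threshold, 11 were measured on all 6 arrays, and for 15 a spot was missing and the fit rested on 2 slides. PATE2, for example, lacked the HIF-1α knockdown spot of slide 2, and KITLG, the ligand of the receptor KIT, both knockdown spots of slide 2. On slides 1 and 3, PATE2 differed by -3.32 and -3.28 and KITLG by -2.55 and -3.53, and those are the slides on which HIF-1α knockdown was the brighter array. Among genes measured on all 6 arrays, 195 were higher and 17 lower at the adjusted threshold when tested alone, a restriction chosen after seeing the data.

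PADI1, an enzyme of squamous differentiation that converts arginine in keratins to citrulline, was at 9.15, 8.45 and 9.64 after GATA3 siRNA, 11.60, 11.21 and 10.96 after HIF-1α siRNA and 8.98, 8.87 and 10.22 after si-Control. HIF-1α knockdown was above all other arrays, and the difference was -2.18 (SE 0.34), 4.52-fold, with an adjusted P of 0.0273 in limma. E2F2, an activating E2F factor of the cell cycle, was at 9.73, 10.62 and 10.19 after GATA3 siRNA, 11.63, 12.50 and 11.78 after HIF-1α siRNA and 9.73, 10.70 and 10.80 after si-Control. Its GATA3 knockdown and si-Control arrays overlapped and the HIF-1α knockdown arrays were above both, a difference of -1.79 (SE 0.29) with an adjusted P of 0.0289 in limma.

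ITGB4, the integrin subunit of hemidesmosomes, was at 13.02, 12.96 and 13.59 after GATA3 siRNA, 14.50, 14.98 and 15.13 after HIF-1α siRNA and 13.60, 13.57 and 14.77 after si-Control. On every slide si-Control lay between the knockdowns, with a difference of -1.68 (SE 0.29) and an adjusted P of 0.0385 in limma. TMC5 was well above background on all 3 HIF-1α knockdown arrays and on 0 GATA3 knockdown arrays, and was at least 3.54-fold higher in HIF-1α knockdown. The glycine transporter SLC6A9 differed by -1.88 and PIRT, a regulator of the TRPV1 channel, by -2.20, with adjusted P values of 0.0393 and 0.0277 in limma. The other 7 of the 12 largest were FOLR2, SESN3, OR4C46, RSAD2, CCDC141, LINC01476 and MUC5B, between -2.03 and -1.76, and they missed the adjusted threshold. MUC5B, a gel-forming mucin, had slide values of -2.35, -0.04 and -2.90, and SESN3 of -2.49, -0.10 and -3.26. The differences of both thus came from slides 1 and 3. OR4C46, CCDC141, LINC01476 and FOLR2 were also nearest to 0 on slide 2, at -0.65, -0.50, -0.59 and -0.78. RSAD2 went the other way, with -2.95 on slide 2 and -0.52 on slide 3. Another probe of FOLR2 gave -0.36 and did not pass.

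Epithelial genes were lower in GATA3 knockdown in 5 of 29 basal keratins, desmosomal and junction genes and higher in 0, against 8.75% lower over all genes. The list median was -0.43, with -0.26, -0.71 and -0.19 on slides 1 to 3, and it stayed below 0 in all alternatives (-0.65 to -0.08). CLDN7, a claudin of tight junctions, was at 12.26, 11.91 and 12.73 after GATA3 siRNA, 13.28, 13.53 and 13.74 after HIF-1α siRNA and 13.06, 12.89 and 14.59 after si-Control. GRHL2, a transcription factor that keeps the epithelial state, was at 11.75, 12.01 and 11.89 after GATA3 siRNA, 12.53, 13.23 and 12.87 after HIF-1α siRNA and 12.66, 13.02 and 12.83 after si-Control. For both genes the GATA3 knockdown arrays were below all 6 others, with differences of -1.22 (SE 0.30) and -0.99 (SE 0.29) that passed at unadjusted P values of 0.00195 and 0.00602 in limma and missed the adjusted threshold. KRT18, KRT19 and CLDN1 differed by -0.69, -0.65 and -0.78, where KRT18 and CLDN1 missed the unadjusted threshold in 9 and 13 of 24 alternatives, and E-cadherin, CDH1, did not pass, at -0.06. In bulk RNA such as this, fewer cells of a type and less RNA per cell cannot be told apart. Of 22 genes of squamous differentiation, 5 were lower and 1, SPRR2A, was higher, with a median of 0.00416. KRT6A, at -1.48, was nearly level on slide 2, at -0.08.

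Interferon-stimulated genes were lower in 4 of 26 members and higher in 0, against 8.75% lower over all genes, with a median of -0.31 that was -0.14, -0.64 and -0.21 on slides 1 to 3. RSAD2, the antiviral protein viperin, was at 8.80, 8.39 and 11.75 after GATA3 siRNA, 10.91, 11.34 and 12.27 after HIF-1α siRNA and 9.46, 10.91 and 13.84 after si-Control. Its si-Control arrays spread more widely than both knockdowns together, and the knockdowns overlapped. OAS2 differed by -1.55 over 2 slides, since its GATA3 knockdown spot on slide 2 was missing, with other probes at -0.04 and, for a dim probe below the background limit on all 6 knockdown arrays, 0.009, and HERC5 and OASL by -1.05 and -0.88, and no member passed the adjusted threshold. HERC5 and OASL missed the unadjusted threshold in 11 and 13 of 24 alternatives. ISG15 and MX1 did not pass, at -0.52 and 0.03.

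**Figure D4:**
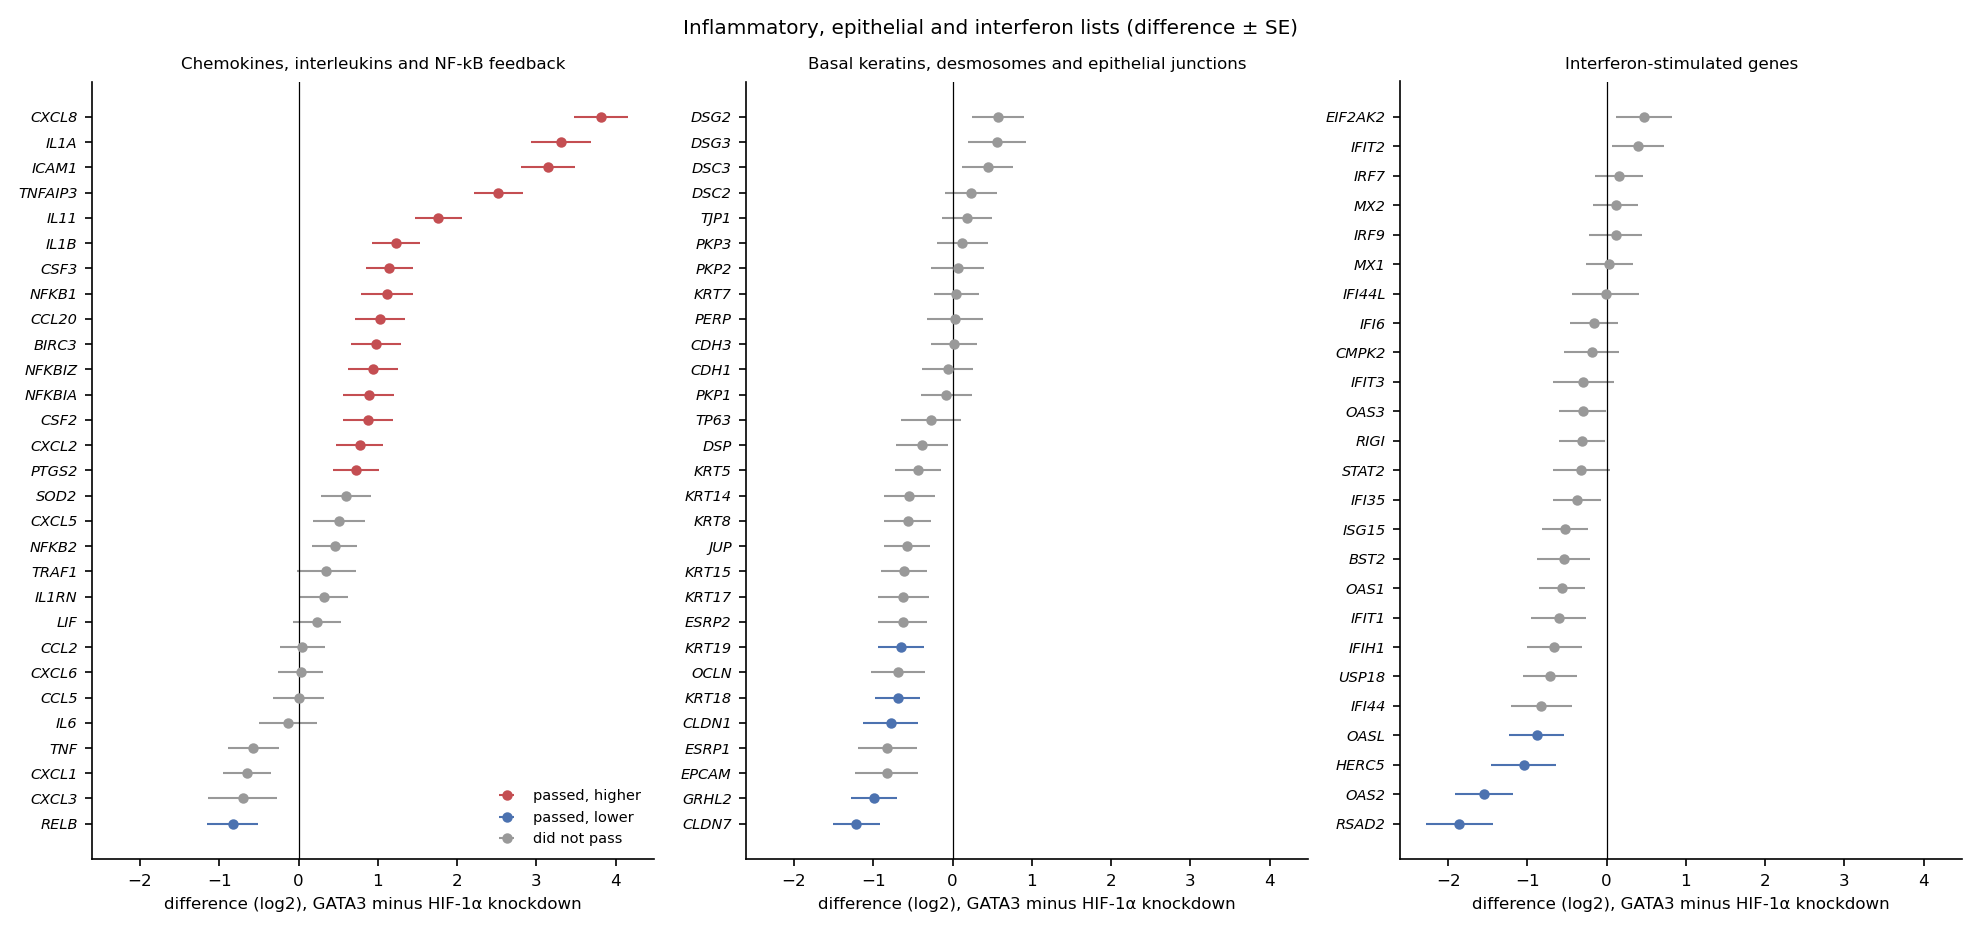
Difference (log2, GATA3 minus HIF-1α knockdown, horizontal axis) of tested members of the inflammatory, epithelial and interferon lists, as the estimate with its SE, red where higher, blue where lower and grey where the unadjusted P was above 0.05. The inflammatory list holds 15 red members and 1 blue, the epithelial list 0 red and 5 blue, and the interferon list 0 red and 4 blue.

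Genes of DNA replication and of sterol synthesis were lower in a few members. Of 29 replication genes, 4 were lower and 0 higher, namely MCM3, MCM6, MCM2 and GINS2 of the replicative helicase, at -0.77, -0.80, -0.72 and -0.86. The share of 4 in 29 is to be read against 8.75% lower over all genes, and the list median of -0.19 was -0.04, -0.61 and 0.17 on slides 1 to 3. Of 31 genes of cholesterol and fatty acid synthesis, 6 were lower and 1 higher, and the list median of -0.21 turned to 0.013 without slide 2, as that of replication turned to 0.11. DHCR7, the last enzyme of cholesterol synthesis, was at 11.52, 10.65 and 12.21 after GATA3 siRNA and 12.79, 12.48 and 13.09 after HIF-1α siRNA, with no overlap and a difference of -1.33 (SE 0.31). FDFT1, MSMO1, FADS1, FADS2 and FASN were between -0.79 and -0.72, while INSIG1, which restrains this pathway, was 1.40 higher. MSMO1, FDFT1 and FADS1 missed the unadjusted threshold in 14, 10 and 7 of 24 alternatives, and the 4 replication genes in 7 to 11. None passed the adjusted threshold.

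Ribosome biogenesis was higher in GATA3 knockdown in 9 of 20 members and lower in 1, POLR1A, against 9.68% and 8.75% over all genes. The median difference of this list was 0.60. It was 0.80, 0.06 and 1.00 on slides 1 to 3, so that slide 2, the slide on which GATA3 knockdown was the brighter array, showed little of it. Lists whose median had the opposite sign on slide 2 were the unfolded protein response and ATF4 targets, mitosis, respiratory chain, TGF-beta and BMP pathway, collagens and integrins, ERK feedback, NRF2 and p53 targets, clock genes, BCL2 family, proteases and EMT factors, each higher on slides 1 and 3. For the 44 respiratory chain subunits the medians were 0.68, -0.30 and 0.70, and 1 subunit, NDUFB9, was higher. For the 29 mitosis genes they were 0.43, -0.59 and 0.70. Of these genes 3 were higher (10.3%) and 1 lower (3.45%), against 9.68% and 8.75% over all genes. With brightness as a covariate the fitted median turned below 0 for 10 of the 30 lists. It went from 0.21 to -0.17 for mitosis, from 0.39 to -0.056 for the respiratory chain, from 0.31 to -0.22 for the unfolded protein response, from 0.19 to -0.18 for collagens, laminins and integrins, from 0.15 to -0.16 for p53 targets, from 0.03 to -0.20 for NRF2 targets, from 0.32 to -0.086 for the BCL2 family and from 0.30 to -0.026 for EMT factors, and the other two were clock and Notch genes. It was 0.12 for ribosome biogenesis, 0.38 for the Jumonji enzymes, 0.47 for the chemokine list and 0.89 for the HIF-1 targets of oxygen, pH, vessels and mitophagy.

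**Figure D5:**
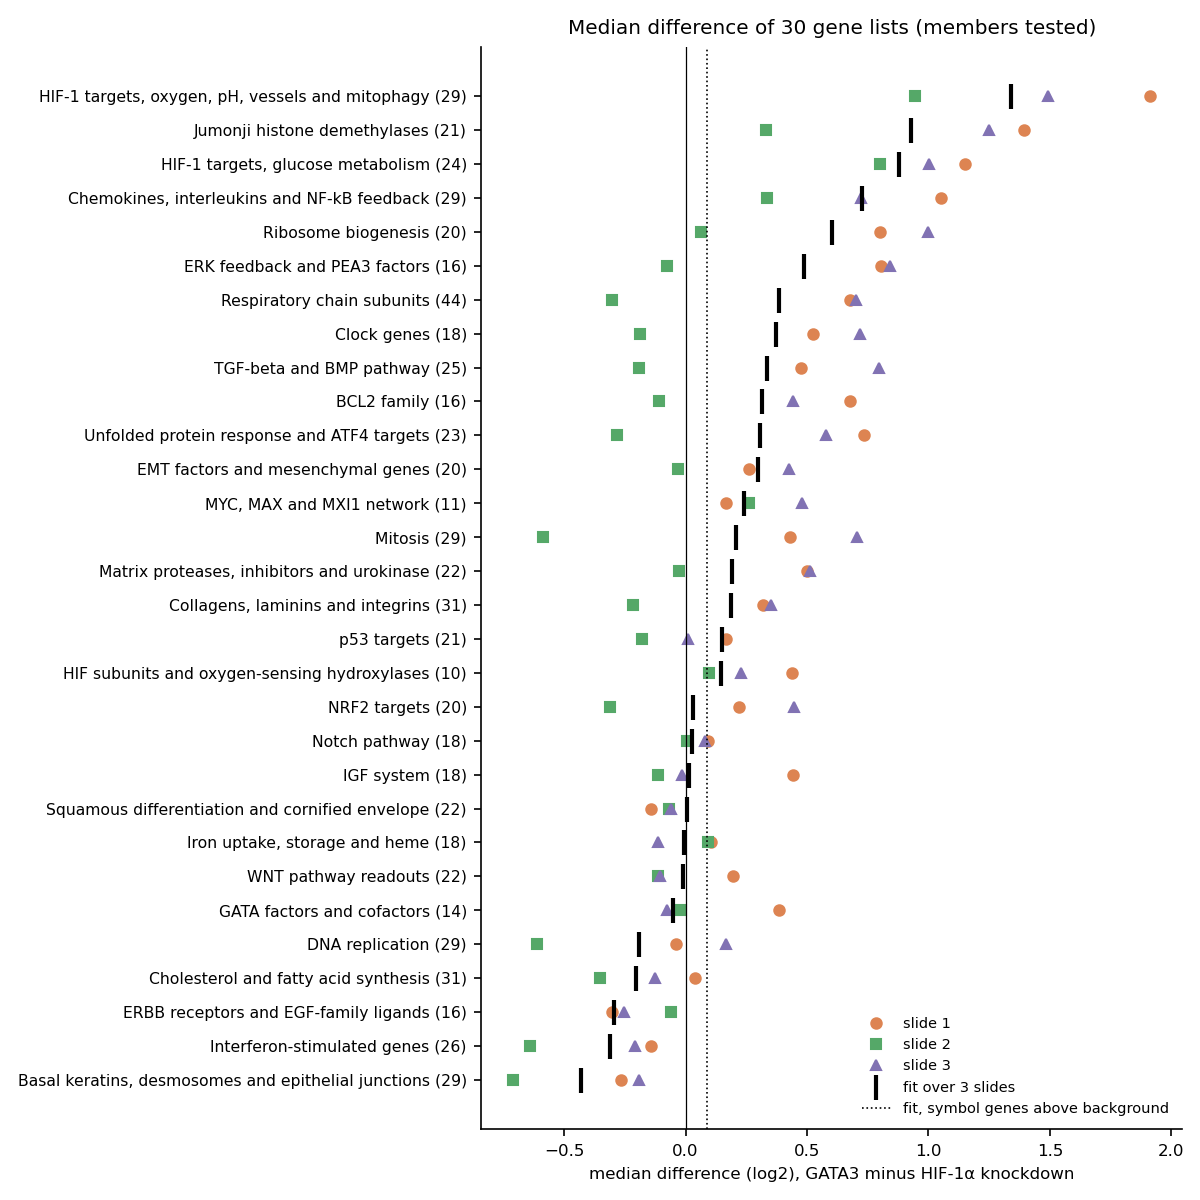
Median difference (log2, GATA3 minus HIF-1α knockdown, horizontal axis) of the tested members of 30 gene lists, for each slide (symbols) and for the fit over the 3 slides (black bars), with the number of members tested in brackets. The HIF-1 target, Jumonji and chemokine lists lie right of 0 on all 3 slides and the epithelial and interferon lists left of 0, while the mitosis list lies on both sides.

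In the signalling lists some members passed, to be read against 9.68% higher and 8.75% lower over all genes. Of 25 genes of the TGF-beta and BMP pathway, 6 were higher and 2 lower. ID3, an inhibitor of helix-loop-helix factors, differed by -1.32 (SE 0.29), with slide values of -1.27, -1.56 and -1.14, while its relative ID1 was 0.87 higher, with 1.89, -0.19 and 0.91. Of 16 ERBB receptors and EGF-family ligands, 3 were higher and 4 lower, with ERBB2 at -0.72 and the ligand EREG at -0.82, which missed the unadjusted threshold in 16 and 7 of 24 alternatives. In the iron list, TFRC, the transferrin receptor, was 1.37 higher and ACO1, the iron-responsive RNA-binding protein, 1.43 higher, among 4 higher and 1 lower of 18. Of the unfolded protein response and ATF4 targets, 5 of 23 were higher, with SESN2 at 1.57, and of 11 genes of the MYC and MAX network 2 were higher and 1 lower.

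The remaining lists held 1 to 4 members higher and 1 to 3 lower, beside the same shares over all genes. IGF system genes were higher in 4 and lower in 2 of 18, p53 targets in 2 and 3 of 21, NRF2 targets in 3 and 1 of 20, WNT readouts in 3 and 1 of 22, Notch genes in 1 and 1 of 18, and clock genes in 4 and 1 of 18, where BHLHE41 is counted again. Collagens, laminins and integrins were higher in 3 and lower in 3 of 31. MGP, an inhibitor of calcification that differed by -1.59, was at 13.08, 11.83 and 13.26 after GATA3 siRNA, 13.99, 14.56 and 14.38 after HIF-1α siRNA and 15.64, 15.60 and 16.03 after si-Control, so that both knockdowns were below si-Control on every slide. EMT factors and mesenchymal genes were higher in 3 and lower in 1 of 20, with SNAI1 at 1.03, and GATA factors and cofactors in 1 and 2 of 14, GATA3 included. GATA5 was well above background on 2 GATA3 knockdown arrays and ESR1, the oestrogen receptor, differed by -0.93, where its other probes gave 0.07 and -0.13.

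Of 7 genes that the study names from its arrays, 5 did not pass between the knockdowns. TGFB2, a growth factor, was at 14.19, 13.92 and 14.22 after GATA3 siRNA, 13.94, 14.33 and 13.97 after HIF-1α siRNA and 14.52, 14.61 and 15.11 after si-Control, with a difference of 0.03 (SE 0.30). IGFBP3, which binds insulin-like growth factors, was at 16.77, 16.21 and 16.01 after GATA3 siRNA, 16.18, 16.40 and 15.94 after HIF-1α siRNA and 18.03, 17.37 and 17.57 after si-Control, with a difference of 0.16 (SE 0.30). For both genes the knockdowns overlapped and lay below si-Control on every slide. HMG20B, LEF1 and ERBB3 did not pass either, at -0.18, 0.33 and -0.59, and LEF1 was well above background on 1 GATA3 knockdown array and 0 HIF-1α knockdown arrays. Dimmer probes of HMG20B gave -0.30 and -0.71, and the latter passed at an unadjusted P of 0.0432 in limma. ARHGDIB, an inhibitor of small GTPases, was 0.68 higher, passing at an unadjusted P of 0.0456 in limma but missing the threshold in 15 of 24 alternatives. WASF3, a regulator of actin, was at 10.44, 10.10 and 10.92 after GATA3 siRNA, 8.98, 9.50 and 9.11 after HIF-1α siRNA and 8.88, 9.67 and 10.14 after si-Control. It was 1.29 higher (SE 0.33) and passed in all 24, with an adjusted P of 0.113 in limma. A P above the threshold does not show that the knockdowns act alike on these genes.

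For each gene the mean level of si-Control was also set beside those of both knockdowns. Of the 161 genes with a symbol that were higher in GATA3 knockdown at the adjusted threshold, the si-Control mean was nearer to GATA3 knockdown for 116 and nearer to HIF-1α knockdown for 45. Of the 26 lower ones, it was nearer to GATA3 knockdown for 18. Over all 18705 symbol genes above background the share nearer to GATA3 knockdown was 56.6%. For the HIF-1 targets that passed upwards it was 15 of 15 in glucose metabolism and 19 of 20 in oxygen, pH, vessels and mitophagy, and in 4 members of each list si-Control was above both knockdowns. For the 15 chemokine and NF-kB genes that were higher, si-Control was nearer to GATA3 knockdown in 5 and to HIF-1α knockdown in 10, and for the 9 ribosome biogenesis genes in 2 and 7. For the 5 epithelial genes that were lower, it was nearer to GATA3 knockdown in 2 and to HIF-1α knockdown in 3. These are counts of means over 3 arrays, with no test.

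The labelled cell type was checked against its markers. Of 10 keratinocyte and squamous carcinoma markers, 7 were well above background on all 3 GATA3 knockdown arrays and 8 on all 3 HIF-1α knockdown arrays, with KRT14, KRT17, TP63 and SFN among them, while KRT5 was so on 0 arrays. The level of their summed intensity (log2) ran from 17.3 to 18.8 after GATA3 siRNA and from 18.0 to 18.9 after HIF-1α siRNA, and 1 of the 10, KRT6A, passed the test. Probes for markers of other cell types were often above background too, with 3 of 8 fibroblast, 5 of 6 endothelial and 4 of 5 measured leukocyte markers on all 3 GATA3 knockdown arrays and 5, 4 and 5 on all 3 HIF-1α knockdown arrays. Of the fibroblast markers, COL3A1, LUM and PDGFRA were not above background on any array, while COL1A1, PDGFRB and THY1 were on every array. COL1A2 and DCN were so on 1 GATA3 knockdown array each and on all arrays of the other groups. PDGFRB had means of 16.2 after GATA3 siRNA and 16.3 after HIF-1α siRNA, and the leukocyte marker PTPRC 16.2 and 16.6. The summed leukocyte level was 15.9 to 16.6 after GATA3 siRNA and about 16.7 after HIF-1α siRNA, the fibroblast level 16.2 to 16.6 and 16.3 to 16.7, the endothelial level 14.0 to 14.8 and 14.4 to 14.8 and the melanocyte level 11.7 to 12.5 and 12.3 to 12.6. Among these other markers DCN and VWF were lower in GATA3 knockdown, at -1.41 and -1.04. The part of other cells in the differences above was not tested.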

How the data were processed

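RNA of 9 samples was hybridised to Agilent 1-colour 8x60K arrays, 1 array per sample. The authors deposited scanner files of Agilent Feature Extraction 10.5.1.1, whose header names hg19, with spot intensity, and a log2 table, which equals the processed signal less each array's 75th percentile. The scanner files hold median and not mean spot signal, so the median intensity less local background was used here. Background was corrected by normexp (offset 50), non-uniform outlier spots were set missing, arrays were quantile normalized over all 9, control spots dropped and spots of a probe averaged, which left 58201 probes. Accessions were matched to RefSeq symbols for 31104 probes (22439 symbols), other probes kept the name of the file, and the brightest probe stood for a gene. No unused sample columns were found (0).

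The 3 GATA3 and 3 HIF-1α knockdown arrays were fitted by lmFit and eBayes of limma 3.58.1 in R 4.3.3 with the slide as a block. Pairing comes from the slide barcodes in the headers, each slide being a single scan with 1 array of each group, and the deviations of arrays sharing a slide correlated at 0.329, -0.197 and 0.101, against -0.398 to 0.326 for arrays of different slides, so the data themselves show no steady pairing, and the correlation of a random slide block was -0.0352. The scripts were tested on simulated data. Genes were called at an unadjusted P of at most 0.05 and, beside it, after Benjamini-Hochberg adjustment over all genes tested. The text names the targets, the 12 largest differences in each direction with the same sign on all slides and signal well above background, up to 4 members of each list in each direction, up to 30 genes past the adjusted threshold and genes the study names. Other members are named to account for whole lists, and some genes that enter the counts are not reported here by name. The comparison, the members and the gene lists were chosen with earlier results of these data known. The median difference of a list was taken over its tested members. The number of arrays limits the precision. Figures were drawn with matplotlib 3.10.9.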

Additional observations from a re-analysis of the deposited data

How the results depend on the processing

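Other settings tested between 17942 and 47753 genes, against 45399. Genes higher and lower in GATA3 knockdown at the unadjusted threshold were 4307 and 4372 without the replicate block, and 15 passed the adjusted threshold, which was also 15 with a random block, 124 with all 9 arrays, 0 on the processed signal, 0 on the authors' table, 198 without background correction, 1675 with 75th percentile scaling after normexp, 779 among genes above background, 63 with non-uniform spots kept, 929 with RefSeq mRNA probes only, 1413 with trend and robust, and 0 with brightness as a covariate. The counts moved by over 1.5 times to 2752 and 2564 higher on the processed signal and the authors' table, to 2693 higher and 1462 lower with RefSeq mRNA probes only, where 17942 genes were tested, and to 1176 and 1058 with brightness. Scaling to the 75th percentile after normexp moved the median of all genes from 0.01 to 0.16. Leaving out a slide or an array gave 1446 to 9914 higher, 1161 to 7703 lower and 0 to 9885 adjusted, the most without slide 2. Among named genes that had passed, the sign turned for 3: MLIP-IT1 to -0.29 with the mean of its probes, and KRT1 and OR7E47P to 0.026 and 0.066 with brightness. For TGFB2, VEGFA, HMG20B and IGFBP3, which had not passed, it turned in 8, 6, 3 and 2 of 24. The causes were not tested.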

Other observations

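The IGF2BP proteins, which bind and stabilise mRNAs and stood in the IGF system list, gave positive differences (GATA3 knockdown minus HIF-1α knockdown, log2). IGF2BP1 differed by 1.41, 0.32 and 1.32 on slides 1 to 3, IGF2BP2 by 1.56, 0.34 and 1.25 and IGF2BP3 by 1.48, 0.07 and 0.78, so that slide 2 showed the least for each. All of these passed the unadjusted threshold of limma and none the adjusted one. IGF2BP1, IGF2BP2 and IGF2BP3 missed the unadjusted threshold in 4, 2 and 11 of 24 alternatives. POSTN, a secreted matrix protein, differed by 2.26, -0.04 and 1.40, so that its mean of 1.21 came from slides 1 and 3. WNT7B, a secreted Wnt ligand, was lower on each slide, by -1.10 on average, and its further probes gave -0.84 and -0.96. FDXR, a mitochondrial reductase on the list of p53 targets, was also lower on each slide, by -1.34 on average. WNT7B and FDXR passed the unadjusted threshold under all 24 alternatives run for them, and with the slide block their adjusted P by limma was 0.164 and 0.0975. FDXR passed the adjusted threshold under some alternatives, with 0.028 without slide 2, where 9885 of 42195 genes passed it.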
